A study of Mus musculus with 3 samples.

Results

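Peak-free stretches are the long intervals of the mouse genome in which FAIRE-seq of the pregnant uterus gave no open chromatin peak. This assay, which isolates regulatory elements with the help of formaldehyde, recovers DNA that is not held to protein after crosslinking, which enriches nucleosome-depleted sites such as active promoters and enhancers. The stretches were chosen from the peaks themselves: on chromosomes 1 to 19, every interval between consecutive peaks in which the next start minus the previous end was 1000000 bases or more. There were 502 of them among 12140 intervals (4.14%). The samples were whole uteri of wild-type C57BL/6J females, 6 to 10 weeks old, mated with fertile males and collected untreated on gestation day 4, with pregnancy checked by blastocysts in the uterine flush. The 3 samples form 1 group and the single peak table names none of them, so the spread between mice is unknown and groups could not be compared. A whole uterus mixes muscle, stromal, epithelial, vascular and immune cells, and the share of each in the signal is unknown.

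Mammalian genomes alternate between gene-dense regions, where promoters rich in CG dinucleotides sit close together, and long gene-poor regions. The latter are known to hold isolated genes of the nervous system, often very large ones, and arrays of duplicated genes that each serve a single organ, such as the odorant receptors of the nose. A promoter rich in CG is typical of broadly active genes and of developmental regulators, while many genes of a single tissue have promoters with few CG.

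The promoters below are shown because they differ in this way. Each is the 250 bases before the annotated start, from RefSeq on assembly GRCm38.p6, written 5′ to 3′ with every CG in capitals. For a gene with several promoters, only the start farthest upstream was used, here and in all promoter values below. The first 4 belong to genes inside a stretch and were taken by rule from families described below: Olfr1000, an olfactory receptor (chr2:85608909-85609158, minus strand), Prl, pituitary prolactin (chr13:27057320-27057569, plus strand), Psg17, a pregnancy-specific glycoprotein (chr7:18821592-18821841, minus strand), and Cdh10, a neuronal cadherin (chr15:18820079-18820328, plus strand). They hold 0, 1, 3 and 2 CG, in that order.

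Olfr1000: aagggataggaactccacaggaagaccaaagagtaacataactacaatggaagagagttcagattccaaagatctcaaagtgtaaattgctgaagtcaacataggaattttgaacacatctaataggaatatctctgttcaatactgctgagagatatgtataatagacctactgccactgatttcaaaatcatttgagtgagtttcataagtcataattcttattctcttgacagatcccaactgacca
Prl: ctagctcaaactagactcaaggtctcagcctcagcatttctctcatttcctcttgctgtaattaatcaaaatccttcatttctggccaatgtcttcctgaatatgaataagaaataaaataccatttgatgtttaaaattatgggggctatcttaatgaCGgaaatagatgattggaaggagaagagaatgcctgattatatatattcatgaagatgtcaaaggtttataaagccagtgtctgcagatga
Psg17: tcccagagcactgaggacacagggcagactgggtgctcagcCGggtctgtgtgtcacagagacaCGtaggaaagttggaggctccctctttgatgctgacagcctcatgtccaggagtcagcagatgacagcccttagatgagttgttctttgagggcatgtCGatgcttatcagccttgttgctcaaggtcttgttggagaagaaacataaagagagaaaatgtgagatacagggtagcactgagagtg
Cdh10: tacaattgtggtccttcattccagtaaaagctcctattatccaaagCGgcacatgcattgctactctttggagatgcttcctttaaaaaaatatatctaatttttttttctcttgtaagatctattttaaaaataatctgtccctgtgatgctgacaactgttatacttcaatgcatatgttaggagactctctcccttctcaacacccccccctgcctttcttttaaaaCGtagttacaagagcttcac

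The next pair are genes with a peak at an end that forms the border of the longest and the second longest stretch: Basp1, a membrane-bound signalling protein (chr15:25413765-25414014, minus strand), and Bean1 (chr8:104170263-104170512, plus strand). They hold 30 and 10 CG. The border peak of Bean1 lies at the promoter shown, and that of Basp1 at the other end of the gene. The last is Ptgs2, the inducible cyclooxygenase of prostaglandin synthesis (chr1:150099781-150100030, plus strand), chosen after its values were seen because it is a uterine implantation gene that lies inside a stretch although its promoter holds 13 CG.

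Basp1: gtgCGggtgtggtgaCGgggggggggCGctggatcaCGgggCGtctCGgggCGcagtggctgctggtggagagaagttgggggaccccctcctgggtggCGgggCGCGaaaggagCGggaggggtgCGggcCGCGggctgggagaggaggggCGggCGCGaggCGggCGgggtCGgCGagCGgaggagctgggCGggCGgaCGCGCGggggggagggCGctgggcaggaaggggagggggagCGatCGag
Bean1: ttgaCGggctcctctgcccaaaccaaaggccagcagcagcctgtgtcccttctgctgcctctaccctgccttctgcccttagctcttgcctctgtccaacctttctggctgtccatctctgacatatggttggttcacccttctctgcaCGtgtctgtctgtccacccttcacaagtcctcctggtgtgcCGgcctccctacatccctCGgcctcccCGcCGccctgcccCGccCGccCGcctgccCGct
Ptgs2: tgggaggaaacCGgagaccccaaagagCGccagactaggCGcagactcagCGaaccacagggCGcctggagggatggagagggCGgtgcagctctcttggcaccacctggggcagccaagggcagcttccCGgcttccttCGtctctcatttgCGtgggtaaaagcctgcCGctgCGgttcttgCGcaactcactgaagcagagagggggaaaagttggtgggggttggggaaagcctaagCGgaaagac

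The stretches covered 1002.6 Mb, or 42.0% of the 2387.2 Mb between the first and last peaks of the 19 autosomes. Their median length was 1.59 Mb (interquartile range 1.22 to 2.36), against a median of 60.5 kb over all intervals. The longest measured 9838058 bases. Of the 502, 169 were 2 Mb or longer, 76 were 3 Mb or longer and 15 were 5 Mb or longer. The shortest members measured 1002311, 1003751 and 1004164 bases, and the longest intervals left out 999351, 995750 and 995659. Between 0.9 and 1 Mb lay 61 intervals, and between 1 and 1.1 Mb lay 69.

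Stretches were found on every autosome, and the longest of each chromosome ran from 2558095 bases (chromosome 19) to 9838058 (chromosome 15). Chromosome 1 had the most, 40, and chromosome 19 the fewest, 12. By share of the span between first and last peak, chromosomes 14 (51.8%), 3 (51.3%) and 16 (48.2%) were covered most, and chromosomes 11 (28.5%), 9 (31.8%) and 19 (33.5%) least. Chromosomes with more protein-coding genes per Mb had a smaller share in stretches, with a Pearson r of -0.51 and a Spearman rho of -0.54 over 19 chromosomes. This is a description only, since the peaks behind the stretches mostly lie at genes. Chromosome 7 went the other way: it had the highest gene density, 14.3 protein-coding genes per Mb, and yet 45.7% of its span lay in stretches, with 571 genes (28.2% of its protein-coding genes) wholly inside them.

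**Figure D1:**
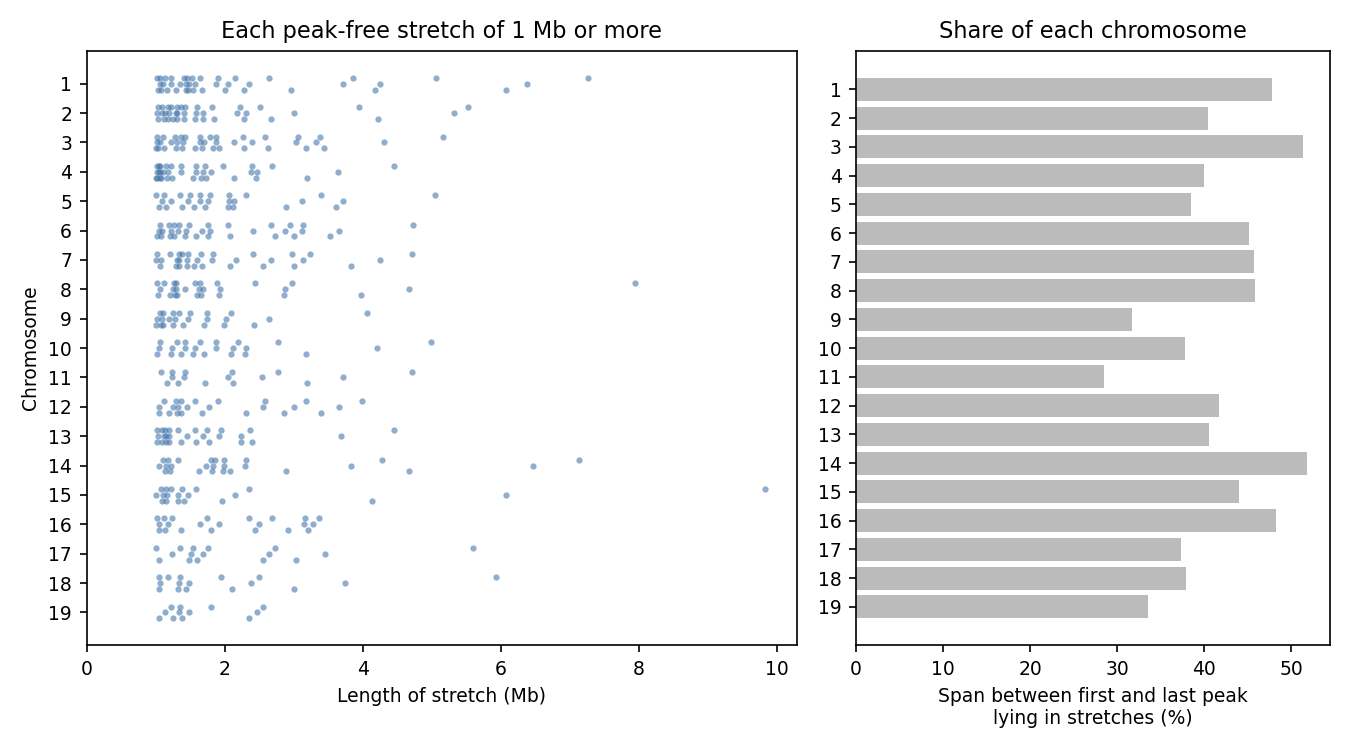
Left, the length in Mb of each of the 502 stretches (1 point each, small vertical offsets only to separate points) by chromosome. Right, the share of each chromosome's span between first and last peak that lay in stretches, from 28.5% on chromosome 11 to 51.8% on chromosome 14. The point farthest to the right is the stretch of 9.84 Mb on chromosome 15.

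Protein-coding genes were sparse in the stretches. Of 20556 autosomal protein-coding genes, 3041 (14.8%) lay wholly inside a stretch, 643 crossed a border and 16872 lay outside. Counted by gene midpoints, the density was 2.92 protein-coding genes per Mb in intervals of 2 Mb or more, 4.19 in those of 1 to 2 Mb, 8.16 from 100 kb to 1 Mb and 27.7 from 10 to 100 kb. No test was made of this order, because peaks sit at genes and the rule selects against them. The genes inside were short in the middle and long at the extreme: their median length was 6.43 kb, against 19.3 kb for all others, yet of 215 protein-coding genes of 500 kb or more, 76 lay wholly inside. The 5 longest were Cntnap2 (2241 kb), Lsamp (2197 kb), Lrp1b (2058 kb), Csmd1 (1643 kb) and Fhit (1612 kb), and Cntnap2, a neuronal cell adhesion gene, filled 77.9% of its stretch. They were chosen after their values were seen.

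Gene content was uneven from stretch to stretch. In 99 stretches no protein-coding gene lay wholly inside, 140 held 1, 138 held 2 to 4, 85 held 5 to 19 and 40 held 20 or more. Those 40 covered 92.6 Mb and held 1776 of the 3041 genes (58.4%). Every stretch held at least 1 annotated gene of some kind, and 14 were touched by no protein-coding gene at all. Of genes of all kinds, 23.9% lay wholly inside.

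The 10 stretches with the most protein-coding genes held 835 of the 3041 (27.5%), and each held an array of a listed family. Olfactory receptors were the largest family in 5: the stretch with the most genes (chromosome 2, 222 of 227 genes), 1 on chromosome 9 (37552819 to 40192166, 95 of 102), 2 on chromosome 7 (102687473 to 104501957, 79 of 100, and 107595310 to 108934340, 42 of 45) and another on chromosome 2 (110018019 to 112239259, 37 of 43). The others were led by vomeronasal type 1 receptors (chromosome 7, 86 of 111), keratin-associated proteins (chromosome 16, 24 of 61), natural killer lectin receptors (chromosome 6, 25 of 52), cornified envelope proteins (chromosome 3, 35 of 48) and defensins (chromosome 8, 39 of 46).

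The 10 longest stretches were poor in genes, and genes of cell adhesion recurred in them. The first, of 9.84 Mb (chromosome 15, 15526122 to 25364180), held Cdh9, Cdh10, Cdh12 and Cdh18, cadherins of the nervous system, with Acot10 and Hnrnpa1l2-ps2. The second, of 7.95 Mb (chromosome 8, 96219188 to 104170525), held Cdh8, Cdh11 and Cdh5. Cdh5 encodes the cadherin of endothelial junctions and lay only 26.0 kb from the peak at Bean1, whereas Cdh11, a mesenchymal cadherin, lay 1385 kb from the nearest peak. The third, of 7.26 Mb on chromosome 1, held Slco6d1, Cntnap5b, Gm29667 and Cdh20. Slitrk1, Slitrk5 and Slitrk6, which encode transmembrane proteins of synapses and sensory neurons, were the only protein-coding genes wholly inside the fourth, of 7.13 Mb on chromosome 14.

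Pcdh20, a protocadherin gene, stood alone in the fifth stretch (chromosome 14, 6.47 Mb). The sixth (chromosome 1, 144004451 to 150392982) held genes of quite another kind and is described with the uterine genes below. Kcnv1 and Csmd3 lay in the seventh (chromosome 15, 6.08 Mb), Cntnap5a and B020011L13Rik in the eighth (chromosome 1, 6.08 Mb), and Pik3c3, Rit2 and Syt4 in the ninth (chromosome 18, 5.93 Mb). The tenth, of 5.61 Mb on chromosome 17, held Vav1, Adgre1, Vmn2r120, Cntnap5c, Pdzph1 and Nudt12. All 3 Cntnap5 genes, on 2 chromosomes, were thus among the members of the 10 longest stretches.

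**Figure D2:**
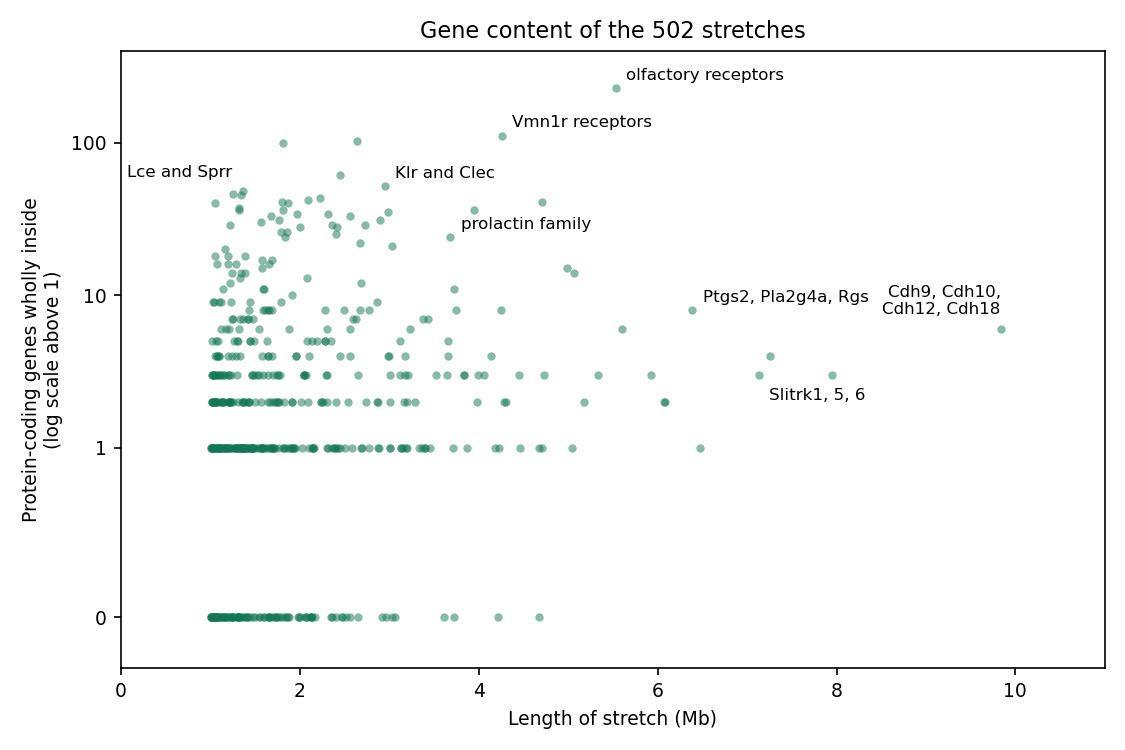
Number of protein-coding genes wholly inside each of the 502 stretches (vertical axis, logarithmic above 1) against its length in Mb. The longest stretches sit low, with 1 to 8 genes in each of the 10 longest, and the stretch with the most, 227 genes, is 5.53 Mb long; labels name some of the genes or families inside.

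Gene families were then counted. Membership was set by symbol patterns for 56 families, and the intervals are 95% Wilson intervals that cover counting error only; duplicated genes of an array share 1 interval, so they are not separate observations. The rule used the peaks, so these shares are set beside the 14.8% of all protein-coding genes as a description, without a test. Of the 3041 genes inside, 1589 (52.3%) belonged to one of the families. Among genes of no listed family, 8.50% lay inside. In 27 families the share was at least 3 times that of all protein-coding genes. Reads from near-identical copies cannot always be placed, and how they were treated is not given in the sources used here, so the emptiness of arrays of such copies is uncertain.

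Chemosensory receptors were the largest group, with 1015 of 1531 members inside. Olfactory receptors, each made by a small set of sensory neurons in the nose, stood at 731 of 1103 (66.3%, interval 63.4 to 69.0) in 18 stretches. A single stretch on chromosome 2 (85048174 to 90579586) held 222 of them, among them Olfr1000, Olfr1002, Olfr1006 and Olfr1008, and it had more protein-coding genes, 227, than any other. Vomeronasal type 1 receptors, which detect pheromones, stood at 149 of 229 (65.1%), with 86 in the stretch on chromosome 7 from 19824439 to 24081771. Vomeronasal type 2 receptors stood at 90 of 122 (73.8%) in 9 stretches. Bitter taste receptors stood at 25 of 35, 24 of them in a stretch of 1.67 Mb on chromosome 6, and Mrgpr receptors of itch and pain neurons at 15 of 20 in a single stretch. Formyl peptide receptors stood at 5 of 7. None of 15 trace amine-associated receptors was inside, because their single array lay in an interval of 352 kb, below the threshold. They too lacked gene-end peaks (peaks within 1 kb of a gene end). None of the 15 had one, against 1 of 1103 olfactory receptors and 45.8% of all protein-coding genes.

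The families grouped as pregnancy and placenta genes had 53 of 62 members inside, counted by family whether or not each member acts in pregnancy. Most are products of trophoblast, the outer lineage of the embryo, and are made by the placenta after implantation. The prolactin family had 23 of 26 members (88.5%) in a stretch of 3.68 Mb on chromosome 13 (25270110 to 28952306), Prl, Prl2a1, Prl2b1 and Prl2c1 among them, bordered by peaks at Nrsn1 (4.12-fold enrichment over local background, the authors' value) and Sox4 (4.78-fold). All 13 pregnancy-specific glycoprotein genes, including Psg16, Psg17, Psg18 and Psg19, and 6 Ceacam genes lay in 1 stretch of 1.84 Mb on chromosome 7 (17056358 to 18893809). Ceacam genes stood at 9 of 15 in all. The 8 placental cathepsins, Cts3, Cts6, Cts7 and Cts8 among them, lay in a stretch of 2.36 Mb on chromosome 13 (60602238 to 62964632), which also held Tpbpa and Tpbpb, trophoblast genes named after their values were seen.

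Families of secreted and barrier proteins ran from all members inside to none. All 22 major urinary protein genes, the pheromone carriers of mouse urine, lay in 1 stretch of 2.40 Mb on chromosome 4. All 35 cornified envelope genes counted (Lce and Sprr), which build the surface of the skin, lay in 1 of 1.36 Mb on chromosome 3. That stretch began at a 5.51-fold peak at an end of Lor, a cornified envelope gene that the symbol pattern left out. Secretoglobins stood at 35 of 40, defensins at 41 of 71, Serpina and Serpinb inhibitors at 27 of 51, all 27 of them Serpinb genes, and keratin-associated proteins of hair at 25 of 56. Keratins, with 53 genes, and kallikreins, with 27, had none inside. Their members lay in intervals of up to 933 kb and 571 kb, below the threshold. Gene-end peaks were rare in them all the same, at 2 of 53 keratins and none of 27 kallikreins, against 45.8% of all protein-coding genes.

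Immune and drug-metabolising arrays were found inside in part. Natural killer lectin receptors (Klra, Klrb, Klrc and others) stood at 25 of 27, all in a stretch of 2.95 Mb on chromosome 6 (128438882 to 131388034) that began at the 11.4-fold peak at Fkbp4, a co-chaperone of the progesterone receptor. This stretch also held 13 of the 23 C-type lectin genes inside, of 33 in all. The 11 Skint genes, which act in the selection of skin T cells, lay together on chromosome 4. Chemokines stood at 14 of 36, while type I interferons (18 genes) and guanylate-binding proteins (10 genes) had none inside. The last 2 families had no gene-end peak either, whereas 45.8% of all protein-coding genes had one. They lay in intervals of up to 627 kb and 907 kb. Sulfotransferases stood at 15 of 21, Slco transporters at 9 of 14 and UDP-glucuronosyltransferases at 12 of 21. Cytochrome P450 families 2, 3 and 4 stood at 34 of 77, all 34 of them Cyp2 genes. None of 19 carboxylesterases was inside and none had a gene-end peak, with intervals of up to 850 kb around them. In the germline group, Pramel genes stood at 43 of 45 and Speer genes at 7 of 10, whereas 1 of 8 Tdpoz genes was inside.

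Families of cell adhesion, receptors and channels, many of them neural, lay inside alone or in groups of up to 4. Classical cadherins stood at 11 of 23 in 5 stretches, the endothelial Cdh5 and mesenchymal Cdh11 included, contactins and Cntnap genes at 8 of 13 in 7, and glutamate receptors at 10 of 26 in 10 separate stretches, Grm7, Grm3, Grik1 and Grm8 in the longest of them. GABA and glycine receptors together stood at 9 of 19 in 5 stretches. All 3 Csmd genes were inside. Leucine-rich synaptic adhesion genes stood at 10 of 34 (29.4%, interval 16.8 to 46.2). Monoamine receptors (5 of 27) and potassium channels (16 of 92, the smooth muscle subunit Kcnmb1 included) lay nearer to the 14.8% of all protein-coding genes. So did sodium and calcium channel alpha subunits (3 of 19). Protocadherins stood at 4 of 67, IgLON genes at 1 of 5, neurexins, neuroligins and teneurins at 2 of 8 and acetylcholine receptors at 2 of 21. The intervals of the last 3 all contain the share of all protein-coding genes.

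Housekeeping families had few members inside. Of 322 genes counted in these families by symbol, whether or not each is broadly active, 6 lay inside (1.86%). These were Rpl10l, Rpl39l and Rps23 among 91 cytosolic ribosomal protein genes, and Mrpl13, Mrpl46 and Mrps11 among 78 mitochondrial ones. No proteasome subunit (39), histone (80), aminoacyl-tRNA synthetase (34) or Hox gene (39) lay wholly inside. Transcription factor families lay nearer to the 14.8% of all protein-coding genes, at 52 of 500 (10.4%). Zinc finger genes named Zfp stood at 46 of 388 (11.9%, interval 9.01 to 15.5), Sox genes at 2 of 18 (Sox5 and Sox2), and Irx and Lhx genes at 1 of 14 (Lhx8).

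**Figure D3:**
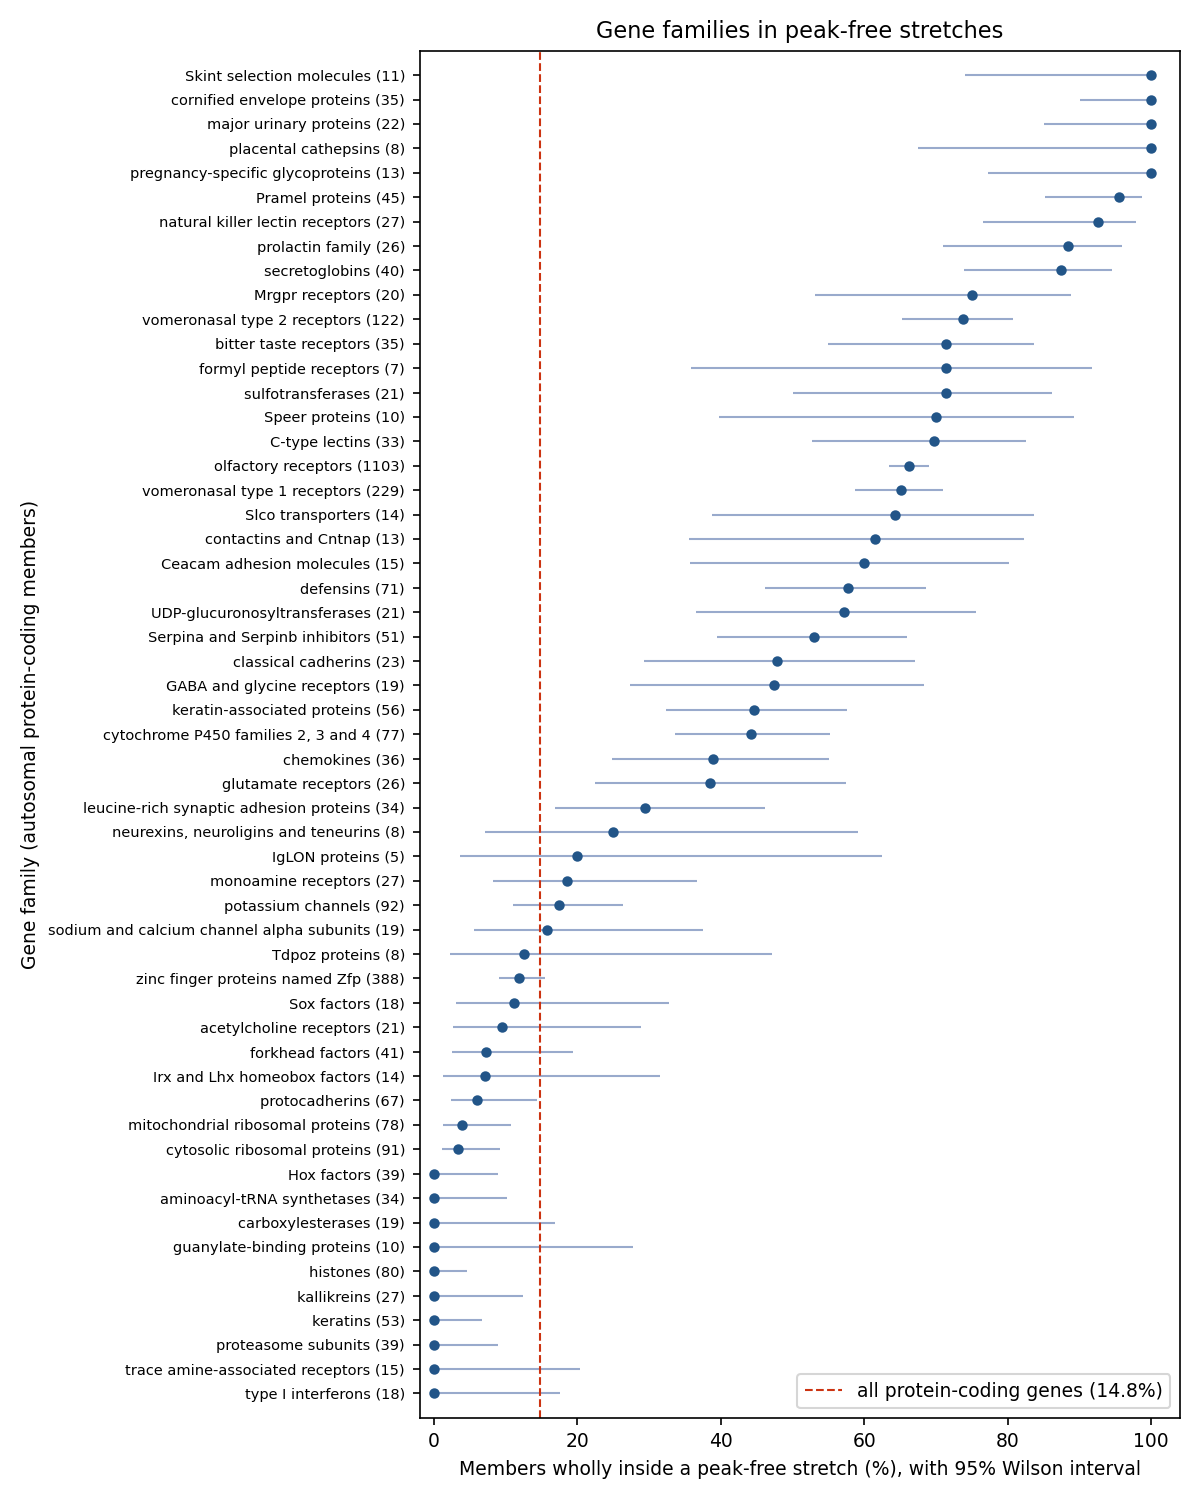
Share of the autosomal protein-coding members of each family that lay wholly inside a stretch (points, %), with 95% Wilson intervals (bars); member counts stand in brackets and families under 5 members are left out. The dashed line marks all protein-coding genes at 14.8%; 5 families stand at 100% and 10 at 0.

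Uterine genes were also found in stretches. Of 26 receptivity and implantation genes, 5 lay wholly inside (19.2%, against 14.8% of all protein-coding genes), and 15 (57.7%) had a peak within 1 kb of a gene end, against 45.8% of all protein-coding genes. Ptgs2 and Pla2g4a lay together in the sixth longest stretch, of 6.39 Mb. Cytosolic phospholipase A2, the product of Pla2g4a, releases the arachidonic acid that Ptgs2 turns into prostaglandins, and both are known to be needed for normal implantation. Ptgs2 lay 285 kb and Pla2g4a 432 kb from the nearest peak. The stretch ran from a 13.7-fold peak at Rgs2 to a 9.48-fold peak at Odr4 and Tpr, and also held the signalling regulators Rgs1, Rgs13, Rgs18 and Rgs21, with Brinp3 and Pdc.

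The other 3 receptivity genes lay in shorter stretches. Foxa2, the transcription factor of uterine glands, shared a stretch of 1.20 Mb on chromosome 2 (147195148 to 148395192) with Pax1 and lay 348 kb from the nearest peak. Prlr, the prolactin receptor, lay 121 kb from the nearest peak in a stretch of 1.33 Mb on chromosome 15 (9140873 to 10470026). Dkk1, a secreted Wnt inhibitor, lay 371 kb from the nearest peak in a stretch of 1.49 Mb on chromosome 19 (30175305 to 31664397). Of 25 autosomal progesterone-regulated genes, 1 was inside, Calca, the calcitonin gene, 62.8 kb from the nearest peak.

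Stromal markers had 5 of 20 inside (25%, against 14.8% of all protein-coding genes). Of the 20, 6 (30%) had a gene-end peak, against 45.8% of all protein-coding genes. The list was built of such markers, so the matrix genes among those inside show no preference for matrix. Dcn and Lum, small leucine-rich proteoglycans that bind collagen, lay with Kera and Epyc of the same gene group in a stretch of 2.30 Mb on chromosome 10 (96617111 to 98913904), 862 and 948 kb from the nearest peak. Col3a1, fibrillar collagen, shared a stretch of 1.65 Mb on chromosome 1 with Col5a2 and lay 446 kb from the nearest peak. Fap, a fibroblast protease, lay at 685 kb and Tcf21, a mesenchymal transcription factor, at 85.2 kb. Of the genes named in these sentences, Kera, Epyc and Col5a2 were chosen after their values were seen.

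Markers of the other cell types had from 0 to 4 members inside. Smooth muscle markers had 2 of 18: Gja1, the connexin of myometrial gap junctions, was the only protein-coding gene of its stretch of 1.37 Mb, 261 kb from the nearest peak, and Kcnmb1 lay at 449 kb. Endothelial markers had 2 of 17, Vwf (58.3 kb) and Cdh5. Immune cell markers had 4 of 20, namely Ptprc (443 kb), Adgre1 (82.9 kb), S100a8 (159 kb) and Klrb1c (340 kb). Neuronal and glial markers had 3 of 18 (Gad2, Gria2 and Syt1) and genes of other organs 3 of 24 (Gcg, Prss1 and Tnp1). None of 18 ubiquitously expressed genes was inside, and 14 of them had a gene-end peak. The lists are short, so single genes move their shares. Lying in a stretch does not show that a uterine gene was closed: many protein-coding genes had no gene-end peak anywhere in the table, and the depth behind the table is unknown.

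**Figure D4:**
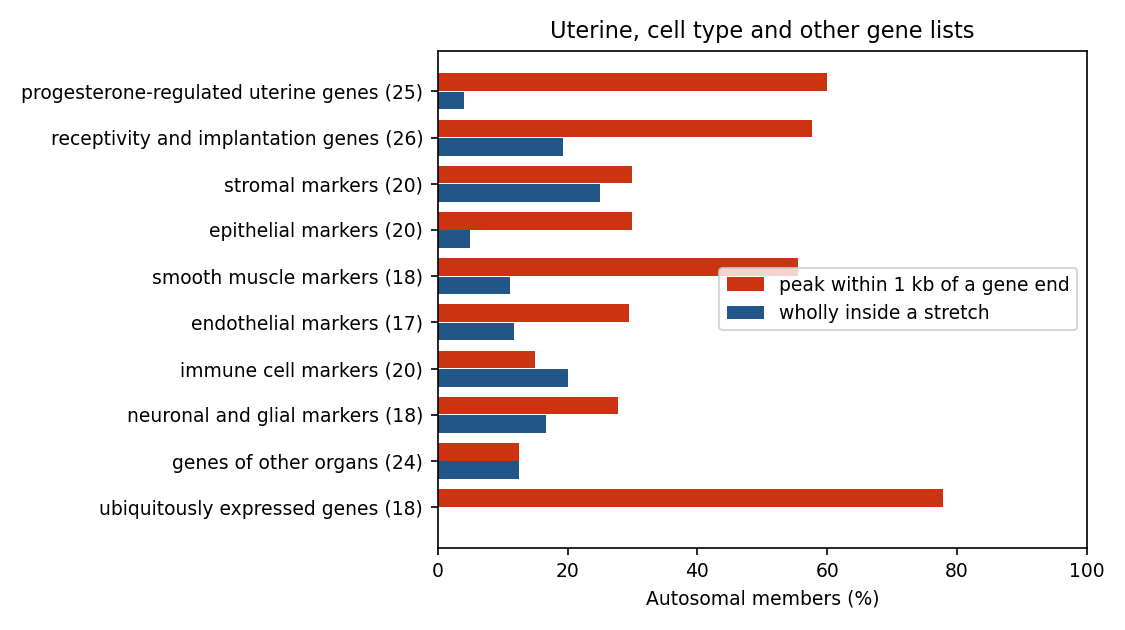
For 10 gene lists (autosomal members in brackets), the share with a peak within 1 kb of a gene end (red) and the share wholly inside a stretch (blue), in percent. The lists run from 0 to 25% inside; ubiquitously expressed genes have no blue bar, and immune cell markers are the only list with more members inside (20%) than with a gene-end peak (15%).

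Promoter sequence was not used to choose the stretches, and was then described for their genes. A RefSeq promoter was matched for 2523 of 3041 genes inside (83.0%), for 6369 of 8110 genes elsewhere with no gene-end peak and for 7564 of 9405 elsewhere with one; chromosome 18 was not covered. In the 250 bases before the start, promoters inside held a median of 1 CG (interquartile range 1 to 3), against 5 (2 to 11) elsewhere without a peak and 18 (13 to 25) with one. The share of promoters with 10 or more CG was 8.84%, 29.7% and 84.8%, in that order, and over all promoters 51.8%. The G and C content had medians of 41.2%, 52.0% and 62.8%. The motif TATAAA, searched on both strands, was present in 29.4% of promoters inside, 15.1% elsewhere without a peak and 4.79% with one. Over all promoters the share was 12.5%, and a match is not evidence of use. The motif holds only A and T, and its shares were not adjusted for the G and C content, which rose as they fell. Genes are not replicates of mice, and no test was made. CG content differed between genes with and without peaks outside the stretches too, and its part in where peaks were called was not tested.

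CG counts varied among the kinds of genes inside. Chemosensory genes had a median of 1 CG, none of 883 promoters had 10 or more, and 41.2% had no CG, as in Olfr1000 above. Chemosensory genes outside the stretches had the same median of 1. The pregnancy and placenta families had a median of 2, with none of 45 at 10 or more. Neural adhesion genes inside had a median of 7, with 11 of 29 promoters at 10 or more, and neurotransmission and channel genes a median of 7, with 10 of 33. Those 2 groups stood at medians of 10 and 9 outside the stretches, where 39 of 114 and 115 of 159 genes had a matched promoter. Of the 26 list genes inside, 19 had a promoter in the table: Gria2 (19 CG), Ptgs2 (13) and Gad2 (13) reached 10, while Dkk1, Foxa2, Prlr and Gja1 held 6 each, Pla2g4a held 3 and Col3a1 held 0.

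**Figure D5:**
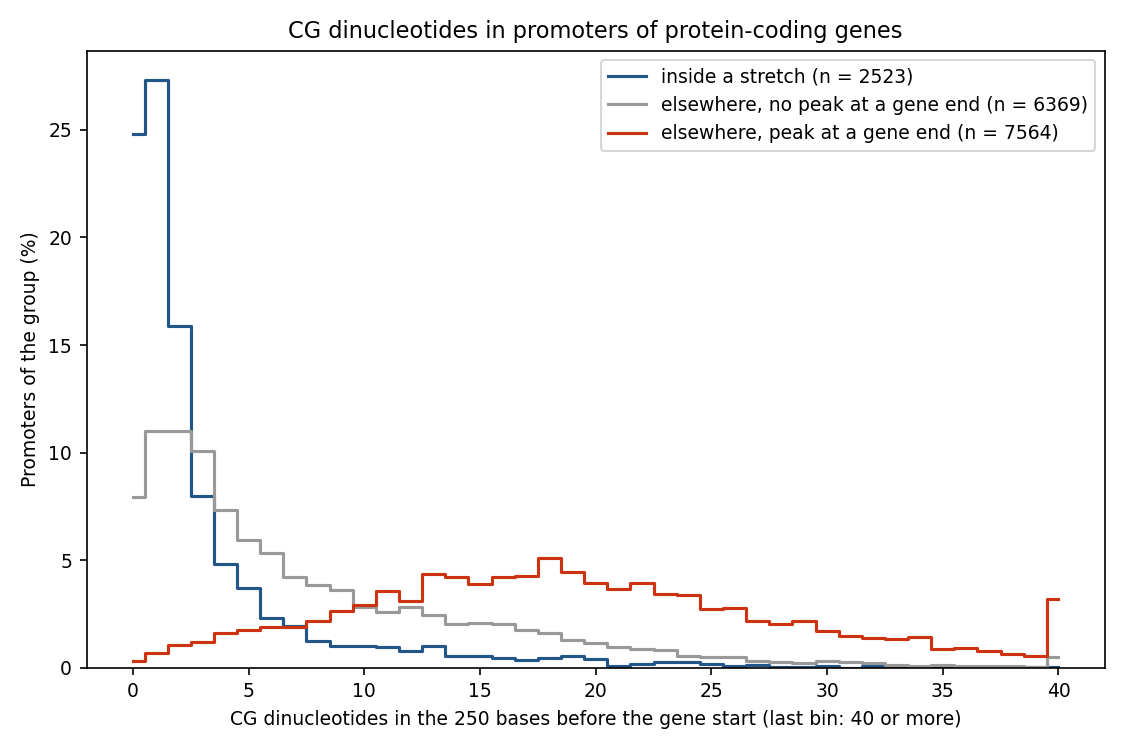
Share of promoters (%) by the number of CG in the 250 bases before the gene start, for protein-coding genes inside a stretch (blue), elsewhere without a gene-end peak (grey) and elsewhere with one (red). The blue line is highest at 1 CG and the red line lies broadly around its median of 18.

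Non-coding genes and antigen receptor segments were counted in the same way. Of 374 antibody and T cell receptor V segments, which are joined only in lymphocytes, 367 lay inside (98.1%), in 5 stretches: 121 at the Ighv locus on chromosome 12, 119 at the Trav locus on chromosome 14, 102 at the Igkv locus on chromosome 6, 22 at Trbv and 3 at Iglv. Pseudogenes stood at 40.5% (3561 of 8798), long non-coding RNA genes at 21.5% (2647 of 12324), microRNA genes at 17% (193 of 1136) and tRNA genes at 10.9% (42 of 386). Small nucleolar RNA genes stood at 42.2% (538 of 1276), and 206 of the 538 lay in 1 stretch of 3.23 Mb on chromosome 7 (59229482 to 62463838). That stretch is the imprinted region between Ube3a (4.61-fold peak) and Peg12 (5.75-fold), known for its arrays of such genes, and it held the paternally expressed genes Snrpn, Snurf, Ndn, Magel2 and Mkrn3, with Ndn 114 kb and Snrpn 753 kb from the nearest peak.

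Many of the microRNA genes inside lay in 2 arrays. A stretch of 1.09 Mb on chromosome 2 (10080652 to 11172109) held 72 microRNA genes of the Mir466, Mir467, Mir669 and related families, with Sfmbt2, the imprinted gene that hosts most of them and acts in the placenta. The Ube3a to Peg12 stretch held 13 genes of the Mir344 family. RefSeq mature sequences were matched for 105 of the 193 genes. They are shown for Mir344 members that carry 3 of the seeds shared by several hairpins of the array, in which 6 of 11 seeds occurred in a single hairpin, and then for muscle, pancreas and brain microRNAs whose genes lay inside, all chosen after their positions were seen. Seeds (bases 2 to 8) are in capitals.

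mmu-miR-344-5p: aGUCAGGCuccuggcuagauuccagg
mmu-miR-344b-5p: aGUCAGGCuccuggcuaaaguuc
mmu-miR-344c-5p: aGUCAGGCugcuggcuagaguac
mmu-miR-344-3p: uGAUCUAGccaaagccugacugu
mmu-miR-344c-3p: uGAUCUAGucaaagccugacagu
mmu-miR-344d-3p: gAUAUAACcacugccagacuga
mmu-miR-344e-3p: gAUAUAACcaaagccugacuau
mmu-miR-206-3p: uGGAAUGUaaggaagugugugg
mmu-miR-133b-3p: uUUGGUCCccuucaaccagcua
mmu-miR-216a-5p: uAAUCUCAgcuggcaacuguga
mmu-miR-217-5p: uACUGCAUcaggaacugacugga
mmu-miR-9-5p: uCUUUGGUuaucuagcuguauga

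The first 3 share the seed GUCAGGC, found in the 5p arm of 7 Mir344 hairpins of the array. The seed GAUCUAG occurred in 3 hairpins and AUAUAAC in 4. Mir206 and Mir133b, which act in skeletal muscle, shared a stretch of 3.72 Mb on chromosome 1. Mir216a, Mir216b, Mir216c and Mir217, known from pancreas, shared 1 of 2.54 Mb on chromosome 11, and Mir9-2, a neural microRNA, lay in 1 of 1.46 Mb on chromosome 13. These are a selection and show no preference for a tissue: Mir205, Mir146, Mir181a-1 and Mir204 also lay inside. The share of microRNA genes inside, 17%, was near the 14.8% of all protein-coding genes.

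The peaks that border stretches were compared with other peaks. The rule did not use their fold enrichment, width or local background. Their place relative to genes is not free of the rule, which used peak positions and gave stretches poor in genes. There were 930 bordering peaks and 11229 other autosomal peaks. Their fold enrichment was close, with a median of 5.85 (interquartile range 4.50 to 7.92) at borders and 5.82 (4.37 to 7.82) elsewhere, and so was their width, 415 against 430 bases. At borders 68.7% of peaks lay within 1 kb of an end of a protein-coding gene and 7.96% between genes, against 75.1% and 3.78% of the others. The local background, computed from pileup and fold, had a median of 7.77 at borders and 8.68 elsewhere, and 32.8% of border peaks were at the lowest background level of the table, against 15.6%. Peaks are not replicates of mice and no test was made.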

How the data were processed

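Per the labels' protocols, 100 mg of frozen uterus was crosslinked in 1% formaldehyde for 9 min, sheared to about 300 bp on average and extracted with phenol-chloroform. Build GRCm38.p5 and the tools Bowtie2, MACS2, HOMER and FastQC come from the submitters' processing notes. Their versions, the thresholds, and any control or pooling of samples were not given in the sources used here. The authors' peak list holds, per the file headers, each peak's pileup, taken as a coverage signal, its fold enrichment, its −log10 p-value and its −log10 q-value. Depth is unknown. The 12413 peaks are numbered without a break.

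Genes came from a RefSeq table of GRCm38.p6, used for names, lengths and neighbours, without genes that start below 3 Mb (scaffold coordinates). A gene was inside when both ends lay between the bordering peaks. Local background was (pileup + 1) / fold − 1. Assembly gaps inside stretches were not analysed here. The families, lists and stretches were chosen with earlier results of these data known. The rule for named genes took the 10 longest stretches, up to 4 members of each family at 3 times the background share (those in the longest stretches), and list members inside. Border genes, microRNAs and other genes named singly were chosen after their values were seen. Python 3.11.15, pandas 2.3.3 and SciPy 1.17.1 were used, and interval finding was tested on simulated data. Some genes inside stretches are not reported here. All results are descriptions, without tests.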

Additional observations from a re-analysis of the deposited data

How the results depend on the processing

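Ending a stretch at another length moved most totals: at 500000 bases or more there were 1079 stretches covering 1403.6 Mb, with 83.95% of olfactory receptor genes inside, and at 2 Mb or more 169 stretches covering 544.8 Mb, with 1443 protein-coding genes and 37.5% of olfactory receptor genes inside. With the 6206 peaks of highest fold, the stretches covered 1322.0 Mb with 4945 protein-coding genes and 73.3% of olfactory receptor genes. With the 6206 of highest −log10 q they covered 1351.3 Mb with 5218 genes and 75.5%. Counting chromosome X gave 1124.9 Mb. Ignoring lone peaks with 500000 bases free on both sides gave 1149.7 Mb and 69.5%. Leaving out 30 peaks of high background, measuring from summit to summit, counting genes that overlap by any length and keeping scaffold genes left each total they bear on within 1.5 times and the olfactory receptor share within its interval. Under every one of these alternatives the olfactory receptor share stayed above that of all protein-coding genes, which ran from 7.02% to 25.4%. No paired analysis was possible because the samples are 1 group and the peak table names none of them; for the same reason no mouse could be left out. A stretch shows where no peak was called at an unknown depth, which does not show closed chromatin.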

Other observations

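Some peaks stood alone between stretches. A stretch lay on both sides of 74 peaks; 40 of these were at an end of a protein-coding gene, 15 elsewhere inside one and 14 between genes. The strongest lay inside Chl1, a neural cell adhesion gene (chromosome 6, 103648959 to 103649413, 20.3-fold), followed by Ptprk (11.1-fold), Gbe1 (11.1), Atxn7l3b (10.7), Cadm2 (10.5) and Auts2 (9.85), each at a gene end. On chromosome 16, 5 stretches in a row were separated by 4 single peaks over 9.78 Mb (65815696 to 75592761), at the ends of Cadm2 and Gbe1 and inside Robo1 and Robo2, and 3 protein-coding genes lay wholly inside those stretches. The longest run was on chromosome 15, where 2 stretches with 1 peak between them spanned 12.2 Mb (13173340 to 25364180). In all, 364 stretches stood alone and 64 runs of 2 or more were found.

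Gene groups outside the 56 families were seen only after their values were known. All 15 Esp genes, exocrine gland peptides that act as pheromones, lay inside 2 stretches of chromosome 17, all 14 Pate genes of the male reproductive tract in 1 stretch of chromosome 9, all 10 Aadacl genes in 2 stretches, all 7 Amy genes, digestive amylases, in 1, and all 6 Obox genes, homeobox genes of the oocyte and early embryo, in 1 stretch of chromosome 7. Nlrp genes stood at 11 of 18 in 6 stretches and Ifi genes at 13 of 17 in 2. Some larger groups stood lower, such as Slc transporters at 31 of 353 (8.78%) and Tmem genes at 10 of 231 (4.33%). Others did not, such as Trim genes at 12 of 68 (17.6%) and Adam genes at 13 of 34 (38.2%). All protein-coding genes stood at 14.8% and those of no listed family at 8.50%. Of the 3041 genes inside, 42 lay within 10 kb of a peak and 487 lay 1 Mb or more from the nearest one.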
